A study of Mus musculus with 12 samples.

Results

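RGS proteins (regulators of G-protein signalling) were examined as 10 genes, *Rgs1*, *Rgs2*, *Rgs3*, *Rgs9*, *Rgs10*, *Rgs12*, *Rgs14*, *Rgs16*, *Rgs18* and *Rgs19*, out of 49585 genes with a count per library. The 10 genes were taken by name from the 21 *Rgs* genes of the mouse annotation, with earlier results of these data known. RNA-seq had been performed with the Smart-seq2 protocol, which amplifies full-length cDNA without keeping its strand, on HSCs from the bone marrow of 6 WT and 6 Pon2-/- mice. Both groups were C57BL/6J mice of 10 to 14 weeks without further treatment. The WT mice came from a commercial breeder, and no source used here states that the groups shared litters. In Pon2-/- mice, a gene trap vector with a β-geo cassette flanked by loxP sites sits in the second intron of *Pon2*, which encodes the antioxidative enzyme paraoxonase 2, and this trap lowers the protein without removing all of it. HSCs were sorted as Lin-, Sca1+, ckit+, CD135- and CD150+ cells, which are LT-HSCs mixed with MPP2 cells, with 10 cells per well and 8 wells per mouse. Each library stands for 1 mouse, so the spread between libraries holds both animal and sampling differences. Whether its counts add up all 8 wells is not stated in the sources used here, so the number of cells behind a count of 0 is not known. As in any pooled sample, fewer cells that express a gene and less RNA per cell cannot be told apart.

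RGS proteins speed up the hydrolysis of GTP by the Gα subunits of heterotrimeric G proteins. Activated G protein-coupled receptors load Gα with GTP, and an RGS protein ends the signal by returning Gα to its GDP form, which binds Gβγ again. In blood cells, RGS proteins are known for limiting the response of leukocytes to chemokines and that of platelets to agonists. *Rgs1*, *Rgs2*, *Rgs3*, *Rgs16* and *Rgs18* belong to the R4 subfamily, most of whose proteins consist of little more than the RGS domain. *Rgs9* belongs to the R7 subfamily, *Rgs10*, *Rgs12* and *Rgs14* to the R12 subfamily, and *Rgs19* to the RZ subfamily.

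The total count was 12967791 to 24228280 per library, with 13941 to 15656 genes counted at least once. *Pon2* had 2484, 3828, 2103, 721, 1441 and 2004 counts in WT replicates 1 to 6 and 530, 658, 547, 477, 25 and 479 counts in Pon2-/- replicates 1 to 6. It averaged 112.7 ± 49.3 CPM in the WT libraries and 25.7 ± 12.2 CPM in the Pon2-/- libraries (SD, n = 6 each). CPM are the counts of a gene divided by the library's TMM-scaled total and multiplied by 1000000. The groups did not overlap for *Pon2*. Its log2 fold change, Pon2-/- over WT, was -2.13 with a standard error of 0.57 (edgeR unadjusted p = 0.00222, adjusted p = 0.586). The fit over all genes thus did not call the trapped gene itself, which limits what an uncalled gene means here. The sort marker genes *Kit* (258.5 CPM or more), *Ly6a* (142.9 CPM or more) and *Slamf1* (30.99 CPM or more) were present in every library, while *Flt3*, which encodes CD135, had 4.59 to 65.0 CPM. A count of 0 in a library allows a level of up to 0.124 to 0.231 CPM (3 counts, counting error only).

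With edgeR, none of the *Rgs* genes tested was called between WT and Pon2-/- HSCs after adjustment over all genes, and neither was *Pon2*. DESeq2 called *Rgs9*, which was counted in 2 Pon2-/- libraries. Of the 10 genes, 7 passed the filter on low counts, and 0 of these 7 passed both thresholds (edgeR quasi-likelihood test, Benjamini-Hochberg FDR below 0.05 and absolute log2 fold change above 1), compared with 0.203% of the 11848 genes tested. The fitted log2 fold change, Pon2-/- over WT, was above 0 for 4 of the 7 genes and below 0 for the other 3. An unadjusted p below 0.05 was found for 1 of the 7, *Rgs1*, compared with 3.13% of all genes tested, or 1.7% for genes that were higher in Pon2-/- HSCs. The exact permutation test of log2 CPM, which also covers genes with few counts, gave a p below 0.05 for 1 of the 10 genes, again *Rgs1*, compared with 5.87% of the genes that passed the filter. For 0 of the 10 genes all libraries of one genotype lay on one side of the other, compared with 0.633% of the genes that passed the filter. *Rgs9* and *Rgs16*, each counted in 2 libraries, could not have entered either of these 2 counts. *Rgs10*, counted in 5 libraries, could not have entered the second, since libraries at 0 had to fall in both genotypes. The counts of single libraries are shown for each gene.

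**Figure D1:**
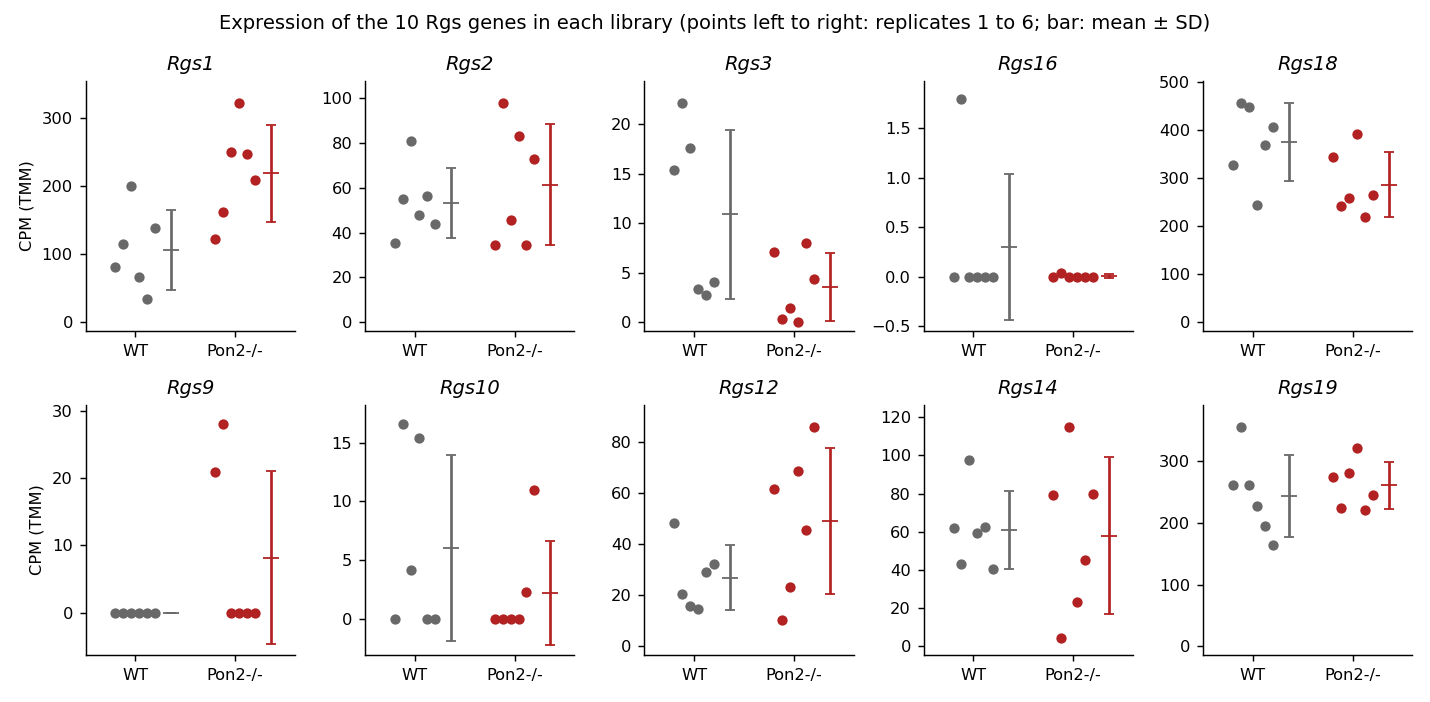
CPM of the 10 *Rgs* genes (vertical axes, a separate scale per gene) in WT (grey) and Pon2-/- (red) HSCs, where each point is 1 library, in the order of replicates 1 to 6 from left to right, and the bar beside them gives the mean ± SD (n = 6). *Rgs1* was at 122.7 to 322.7 CPM in Pon2-/- HSCs and at 34.7 to 200.1 CPM in WT HSCs, *Rgs9* was counted in 2 Pon2-/- libraries, and bars that reach below 0 come from genes counted in few libraries.

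The genes differed in level by orders of magnitude. Levels of different genes were compared per length, as CPM per kilobase (kb) of annotated exon, averaged over the 12 libraries. *Rgs18* was first with 162.9 ± 41.4 CPM per kb and *Rgs19* second with 113.4 ± 23.7 CPM per kb (SD, n = 12 each). *Rgs1* followed with 23.4 ± 12.3, *Rgs2* with 15.8 ± 5.90 and *Rgs14* with 14.0 ± 7.32 CPM per kb. These 3 neighbours differed by less than their SD. *Rgs12* came next with 4.46 ± 2.84 CPM per kb, below *Rgs14* by more than the SD. *Rgs10* (2.41 ± 3.75), *Rgs3* (0.670 ± 0.673), *Rgs9* (0.639 ± 1.51) and *Rgs16* (0.0655 ± 0.221 CPM per kb) stood last, and neighbours among them and *Rgs12* did not differ beyond their spread. With the length of the longest annotated transcript in place of the exons, *Rgs19* came before *Rgs18*, so the first 2 places depend on the gene model. Within WT HSCs, *Rgs10* (3.52 CPM per kb) came before *Rgs12* (3.15), and *Rgs9*, at 0, came last after *Rgs16* (0.128). Within Pon2-/- HSCs, *Rgs12* (5.78), *Rgs10* (1.296), *Rgs9* (1.278), *Rgs3* (0.331) and *Rgs16* (0.00307 CPM per kb) followed in this order.

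**Figure D2:**
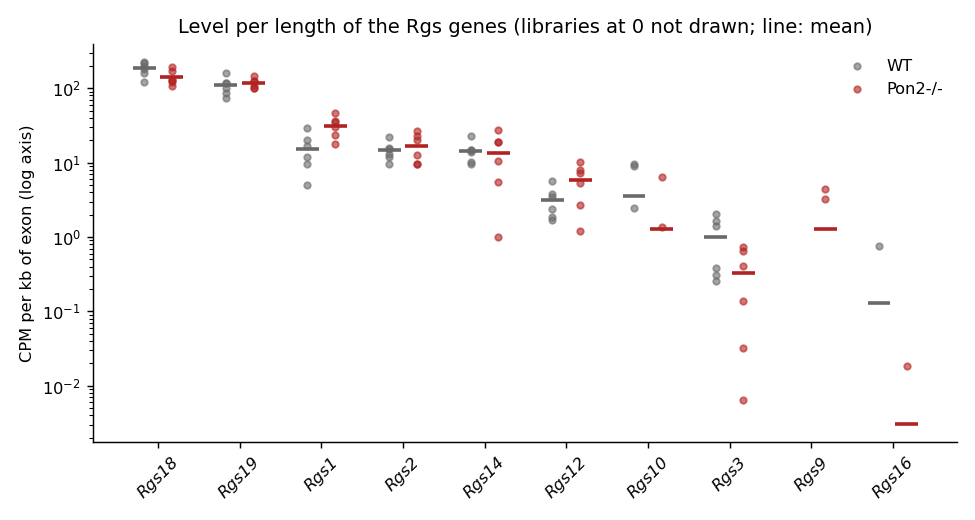
Level per length of the 10 *Rgs* genes in CPM per kb of exon (vertical log axis), in the order of their mean over all libraries, where points are libraries of WT (grey) and Pon2-/- (red) HSCs, lines are the means of 6 libraries, and libraries at 0 are not drawn. *Rgs18* and *Rgs19* lay above 100 CPM per kb on average, and *Rgs16*, in last place over all libraries, had a mean of 0.128 in WT and 0.00307 in Pon2-/- HSCs.

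The share of a gene in the summed level per length of all 21 *Rgs* genes was computed within each library. *Rgs18* held 52.7 ± 6.72% of this sum in WT HSCs and 42.4 ± 4.09% in Pon2-/- HSCs. *Rgs19* held 31.2 ± 5.69% and 35.6 ± 1.62%. *Rgs1* held 4.25 ± 1.94% in WT and 9.59 ± 2.74% in Pon2-/- HSCs (SD, n = 6 each). These shares are tied to each other, since they add up over the family, and they were not tested.

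*Rgs1*, a brake on Gαi and Gαq signals that is known from activated lymphocytes, had the highest fitted log2 fold change of the 7 genes tested. Its counts were 1927, 2191, 4962, 861, 478 and 2256 in WT replicates 1 to 6. In Pon2-/- replicates 1 to 6 they were 2053, 3767, 4402, 4654, 5338 and 3487. After scaling, 4 of the 6 Pon2-/- libraries lay above the highest WT library, while replicates 1 and 2 lay within the WT range. *Rgs1* averaged 106.4 ± 58.6 CPM in the WT libraries and 219.1 ± 70.8 CPM in the Pon2-/- libraries (SD, n = 6 each). The fold change was 2.06, with a 95% interval of 1.20 to 3.53 (log2 fold change 1.04, standard error 0.36, edgeR unadjusted p = 0.0122, adjusted p = 0.9999). The two-sided exact permutation test gave p = 0.0152 (n = 6 each), where 0.00216 is the smallest p this design allows. When 1 library was left out at a time, the log2 fold change was 0.86 to 1.32 and the adjusted p was 0.493 to 1.00. Over all fits made, the lowest adjusted p of *Rgs1* was 0.0966, in DESeq2 without Pon2-/- replicate 1.

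Marker genes of other cell types were summed in each library, among them those of B cells, in which *Rgs1* is known to be abundant. The 10 genes of the B lineage list summed to 25.5 to 347.8 CPM in WT and 58.8 to 868.4 CPM in Pon2-/- HSCs, with medians of 99.4 and 185.6 CPM. The 2 libraries with the highest sums were Pon2-/- replicates 5 (868.4 CPM) and 4 (515.2 CPM), which had 247.0 and 322.7 CPM of *Rgs1*. Pon2-/- replicate 6 had the lowest sum of its genotype (58.8 CPM) and 209.5 CPM of *Rgs1*, and WT replicate 2 had the highest sum of the WT libraries (347.8 CPM) and 115.6 CPM of *Rgs1*. Of the 10 genes of the T and NK lineage list, *Cd3e*, *Cd8a*, *Cd5*, *Trac* and *Klrd1* had no count in any library, and the list summed to 75.1 to 260.3 CPM in WT and 55.9 to 267.4 CPM in Pon2-/- HSCs. The myeloid list ran from 357.8 to 8087 CPM in WT and from 344.0 to 12482 CPM in Pon2-/- HSCs. Immediate early genes, which respond to the handling of cells, summed to 219.5 to 370.8 and 204.2 to 334.6 CPM, with *Atf3* at 0. The part of these cells and genes in the level of *Rgs1* was not tested.

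*Rgs18*, which is known from platelets and megakaryocytes, had the most counts of the 10 genes. It had 7698, 8644, 11102, 3127, 5081 and 6606 counts in WT replicates 1 to 6. The Pon2-/- replicates 1 to 6 had 5764, 5625, 4544, 5652, 4724 and 4402 counts. In CPM, 3 of the 6 WT libraries lay above all Pon2-/- libraries, 2 Pon2-/- libraries lay below all WT libraries, and the other libraries overlapped. *Rgs18* averaged 374.9 ± 80.2 CPM in the WT libraries and 286.7 ± 66.7 CPM in the Pon2-/- libraries (SD, n = 6 each), a ratio of 0.765 with a 95% interval of 0.581 to 1.01 (log2 fold change -0.39, standard error 0.18, edgeR adjusted p = 0.9999). The exact permutation p was 0.0758 (n = 6 each), and 0.0238 to 0.139 when 1 library was left out. It was below 0.05 only without WT replicate 4 (0.0238) or Pon2-/- replicate 4 (0.0325). Markers of megakaryocytes and platelets summed to 205.1 to 282.2 CPM in WT and 170.5 to 309.3 CPM in Pon2-/- HSCs, and the 2 ranges overlapped.

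*Rgs1* and *Rgs18* lie in the same cluster on the minus strand of chromosome 1 (GRCm38). *Rgs1* (ENSMUSG00000026358.13) spans 144242296 to 144249242 and *Rgs18* (ENSMUSG00000026357.3) spans 144752683 to 144775435. In GENCODE release M21, the annotation of *Rgs1* covers its whole span of 6947 bases as exon, because transcripts with retained introns are included. The reads were counted on release M12, which was not checked for this, so reads from its introns may have counted as well. The coding sequences of the 2 neighbours, 630 bases in *Rgs1* and 708 bases in *Rgs18*, are shown at the 60 bases where they are most alike without gaps, to see how far reads of the 2 genes can be told apart. This stretch lies within 1 coding exon of each gene, at chr1:144246274-144246333 in *Rgs1* and chr1:144756010-144756069 in *Rgs18*. Capitals mark the bases that differ, and the strand is that of the mRNA.
Rgs1: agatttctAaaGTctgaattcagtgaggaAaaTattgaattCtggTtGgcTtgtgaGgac
Rgs18: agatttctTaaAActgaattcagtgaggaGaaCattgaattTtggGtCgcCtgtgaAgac
Of the 60 bases, 50 were identical and 10 differed (83.3% identity). No run of 31 bases was shared between any pair of the 10 genes in the annotated transcripts, and *Rgs1* and *Rgs18* shared none with any other gene.

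Within a library, the ratio of *Rgs1* counts to *Rgs18* counts needs no scaling between libraries. It was 0.250, 0.253, 0.447, 0.275, 0.0941 and 0.342 in WT replicates 1 to 6. It was 0.356, 0.670, 0.969, 0.823, 1.13 and 0.792 in Pon2-/- replicates 1 to 6. Of the 6 Pon2-/- libraries, 5 lay above the highest WT library, and Pon2-/- replicate 1 lay between the 2 highest WT values. The mean was 0.277 ± 0.116 in WT and 0.790 ± 0.265 in Pon2-/- HSCs (SD, n = 6 each). The pair was chosen after the values of both genes had been seen, so the ratio is a description and was not tested.

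**Figure D3:**
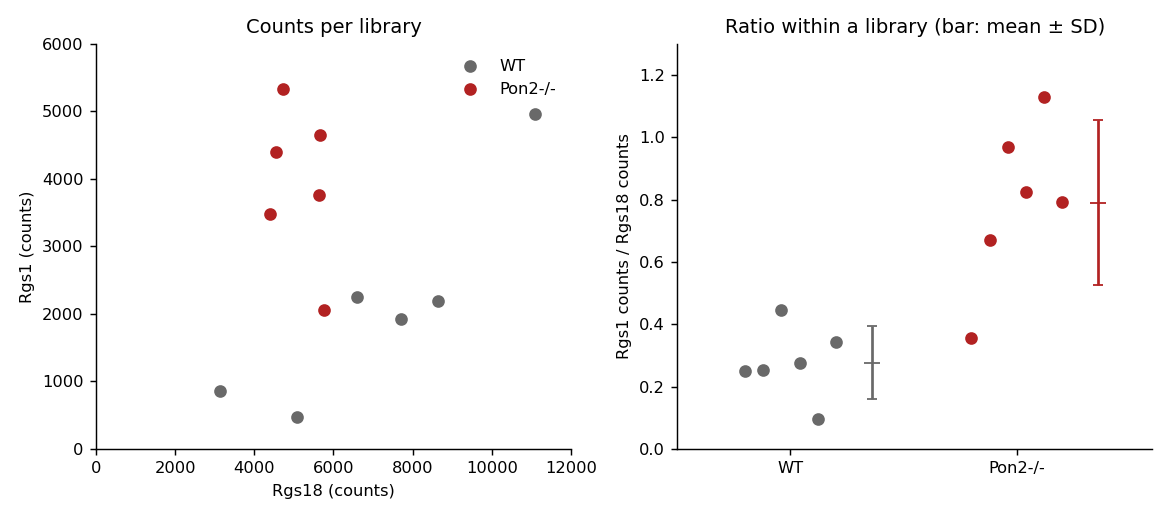
Left, *Rgs1* counts (vertical axis) against *Rgs18* counts (horizontal axis) in each library, and right, the ratio of both counts within a library with the mean ± SD beside the points (n = 6), for WT (grey) and Pon2-/- (red) HSCs. The ratio was 0.0941 to 0.447 in WT and 0.356 to 1.13 in Pon2-/- HSCs.

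The cluster holds *Rgs2*, *Rgs13*, *Rgs1*, *Rgs21* and *Rgs18* within 776.1 kb, together with 3 genes of other kinds. Its 5 *Rgs* genes were not used alike. *Rgs13* had 1 count in all 12 libraries together, and *Rgs21* had 44 counts in Pon2-/- replicate 6 and none elsewhere. The pseudogene *Gm7266*, next to *Rgs1*, had 30 counts in each genotype. *Rbm6-ps2* had 4 counts in all, and the snRNA gene *Gm23672* had none. Thus counts were found on *Rgs2*, *Rgs1* and *Rgs18*, and hardly on the genes between them.

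**Figure D4:**
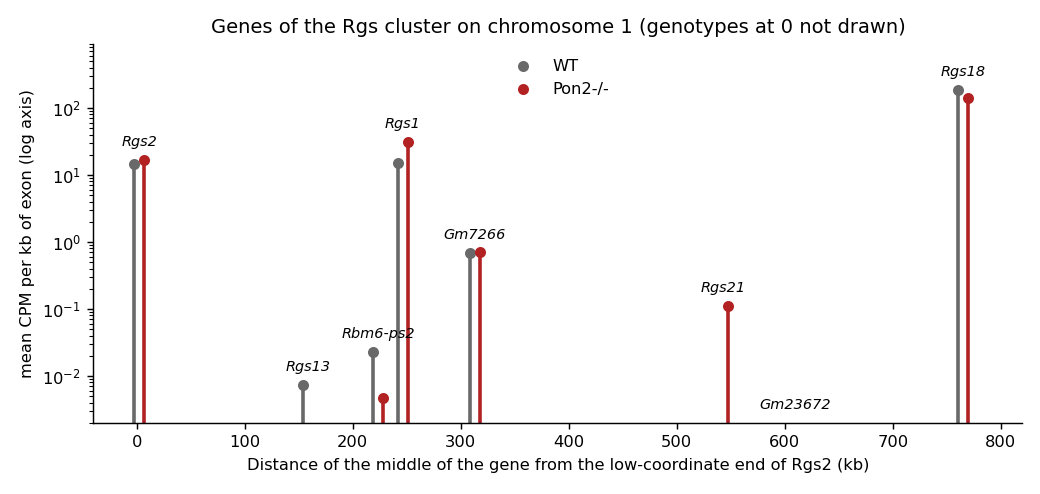
Mean CPM per kb of exon (vertical log axis) of the 8 genes of the chromosome 1 cluster in WT (grey) and Pon2-/- (red) HSCs (n = 6 each), placed by the distance in kb of the middle of each gene from the low-coordinate end of *Rgs2*, with both genotypes set slightly apart and genotypes at 0 not drawn. *Rgs18* and *Rgs2* lie at the ends of the interval, and *Rgs1* was at 15.3 CPM per kb in WT and 31.5 CPM per kb in Pon2-/- HSCs.

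*Rgs2*, which acts on Gαq more than on other Gα subunits, is the cluster member at the low-coordinate end (143999338 to 144004161). It had 831, 1042, 2000, 612, 774 and 713 counts in WT replicates 1 to 6 and 573, 2264, 800, 1198, 741 and 1208 counts in Pon2-/- replicates 1 to 6. The CPM of the genotypes overlapped, with 2 Pon2-/- libraries above and 2 below all WT libraries. *Rgs2* averaged 53.1 ± 15.5 CPM in the WT libraries and 61.2 ± 27.0 CPM in the Pon2-/- libraries (SD, n = 6 each). Its fold change was 1.15 with a 95% interval of 0.697 to 1.91, which includes 1 (edgeR adjusted p = 0.9999).

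*Rgs3* and *Rgs16* are the other members of the R4 subfamily. *Rgs3*, on chromosome 4 from 62559847 to 62704001, encodes long and short proteins that act on Gαi and Gαq. It had 362, 419, 437, 43, 38 and 67 counts in WT replicates 1 to 6 and 119, 8, 26, 1, 174 and 73 counts in Pon2-/- replicates 1 to 6. WT replicates 1, 2 and 3 lay above all Pon2-/- libraries, Pon2-/- replicates 2, 3 and 4 lay below all WT libraries, and the remaining libraries overlapped. The log2 fold change of *Rgs3* was -1.61 with a standard error of 1.07, and the ratio of 0.329 had a 95% interval from 0.0669 to 1.61 (edgeR adjusted p = 0.9999). The exact permutation p was 0.0779 (n = 6 each), and 0.0455 to 0.156 when 1 library was left out. It was below 0.05 only without Pon2-/- replicate 1 (0.0498) or Pon2-/- replicate 5 (0.0455). Of the runs of 31 bases in *Rgs3*, 12.5% also occur in another gene, most of them in the pseudogene *Gm5763*, which had 4 counts in all libraries together. *Rgs16*, known as a gene that is switched on in activated lymphocytes, had 34 counts in WT replicate 2, 1 count in Pon2-/- replicate 2 and none in the other libraries. The ratio, Pon2-/- over WT, was 0.0294 with an exact 95% counting interval of 7.23e-04 to 0.175, which covers counting error only and not PCR copies or differences between mice. Its WT counts came from 1 library, and the exact permutation p was 1.0 (n = 6 each). *Rgs16* overlaps the antisense gene *Gm28513* in its exons, and without strand the reads of both cannot be told apart. *Gm28513* had 11 counts in WT and 133 counts in Pon2-/- libraries, 119 of them in 1 library.

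*Rgs9*, the only R7 gene among the 10, is known from photoreceptors and the striatum, where its protein is held by Gβ5 and a membrane anchor. It had no count in any WT library and none in Pon2-/- replicates 3 to 6, but 350 counts in Pon2-/- replicate 1 and 651 counts in Pon2-/- replicate 2. The counts thus came from 2 of 12 mice. Against 3 counts over the WT group, the *Rgs9* counts pooled over the Pon2-/- libraries were at least 334-fold higher after scaling. This bound was 255.8-fold and 147.7-fold when Pon2-/- replicate 1 or replicate 2 was left out, and it describes those 2 mice rather than the genotype. These bounds cover counting error only, since copies of a molecule made by PCR count as several reads. The exact permutation p was 0.455 (n = 6 each), the lowest that a gene counted in only 2 libraries can reach, so this test could not decide. *Rgs9* did not pass the filter on low counts, and without this filter edgeR gave an adjusted p of 0.281. DESeq2 called *Rgs9* as its only one of the 10 genes, with an adjusted p of 7.7e-13, in a fit that called 1.79% of the genes with an adjusted p, and also without Cook's cutoff for outlying counts (adjusted p = 7.97e-13), where 4.2% of the genes were called. When Pon2-/- replicate 1 or replicate 2 was left out, DESeq2 marked the remaining library as an outlying count and gave no p for *Rgs9*. Of its known partners, *Gnb5*, which encodes Gβ5, was counted in all 12 libraries with 24.8 ± 6.87 CPM in the WT and 18.4 ± 9.14 CPM in the Pon2-/- libraries. The anchor gene *Rgs9bp* had 311 counts in Pon2-/- replicate 6, where *Rgs9* had none, and 0 counts in the other libraries. *Rgs7bp*, which encodes a related anchor, was counted in 6 WT and 4 Pon2-/- libraries. Of these 3 partner genes, *Gnb5* and *Rgs7bp* were tested, and both had log2 fold changes below 0 (-0.43 with a standard error of 0.61 and -1.55 with a standard error of 1.57, edgeR adjusted p = 0.9999 for both).

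The R12 genes *Rgs12* and *Rgs14* encode large proteins that join an RGS domain with Ras-binding domains and a GoLoco motif, while *Rgs10* encodes a short protein with little beside the RGS domain. *Rgs12*, on chromosome 5 from 34949445 to 35039644, had 1137, 386, 392, 185, 400 and 526 counts in WT replicates 1 to 6. In Pon2-/- replicates 1 to 6 it had 1031, 234, 407, 986, 979 and 1428 counts. In CPM, 3 Pon2-/- libraries lay above all WT libraries and Pon2-/- replicate 2 lay below all of them. *Rgs12* averaged 26.7 ± 12.7 CPM in the WT libraries and 49.1 ± 28.6 CPM in the Pon2-/- libraries (SD, n = 6 each), a fold change of 1.84 with a 95% interval of 0.847 to 3.98 (edgeR adjusted p = 0.9999). The exact permutation p of *Rgs12* was 0.229 (n = 6 each), and 0.0303 to 0.418 when 1 library was left out. It was below 0.05 only without Pon2-/- replicate 2 (0.0303). The antisense gene *Gm43791*, which overlaps exons of *Rgs12*, had 0 counts, but without strand the reads of shared exons cannot be told apart.

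*Rgs14* (chromosome 13, 55369732 to 55384687) had 1462, 821, 2417, 759, 864 and 656 counts in WT replicates 1 to 6 and 1328, 98, 2024, 331, 978 and 1331 counts in Pon2-/- replicates 1 to 6. Its CPM spread more widely in Pon2-/- HSCs, from 4.23 to 115.1, than in WT HSCs, from 40.3 to 97.5, and the means were 57.8 and 60.9 CPM. The difference in spread was not tested. The ratio of *Rgs14* was 0.950 with a 95% interval of 0.412 to 2.19 (edgeR adjusted p = 0.9999), and the sign of its log2 fold change turned when 1 of 3 single libraries was left out. *Rgs10* (chromosome 7, 128373621 to 128418758) was counted in 3 WT libraries, replicates 2, 3 and 4, with 314, 104 and 197 counts, and in 2 Pon2-/- libraries, replicates 5 and 6, with 50 and 183 counts. The other 7 libraries had none, and the exact permutation p was 0.394 (n = 6 each).

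*Rgs19*, whose protein binds Gαi subunits and is also known as GAIP, lies on chromosome 2 from 181688419 to 181693977. It had 6187, 6755, 6477, 2899, 2689 and 2669 counts in WT replicates 1 to 6 and 4600, 5190, 4935, 4634, 4793 and 4090 counts in Pon2-/- replicates 1 to 6. The genotypes overlapped, with means of 244.4 ± 66.9 CPM in the WT libraries and 261.4 ± 38.4 CPM in the Pon2-/- libraries (SD, n = 6 each). The fold change of 1.07 had a 95% interval of 0.816 to 1.40, so that a change to more than 1.40-fold lies outside the interval (edgeR adjusted p = 0.9999). *Rgs19* and *Rgs18* were also the steadiest of the 10 genes. The coefficient of variation (CV, SD over mean) of *Rgs19* was 27.4% in WT and 14.7% in Pon2-/- HSCs, and that of *Rgs18* was 21.4% and 23.3%, while the median CV of all genes tested was 53.5% and 55.3%. In WT HSCs, 16.8% of the genes tested had a smaller CV than *Rgs19* and 9.27% had a smaller CV than *Rgs18*. In Pon2-/- HSCs these shares were 3.43% and 11.1%. Both genes also had the most counts of the 10, and CVs were not compared among genes of like level. *Rgs3* varied the most of the 7 genes tested, with a CV of 77.9% in WT and 97.2% in Pon2-/- HSCs.

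**Figure D5:**
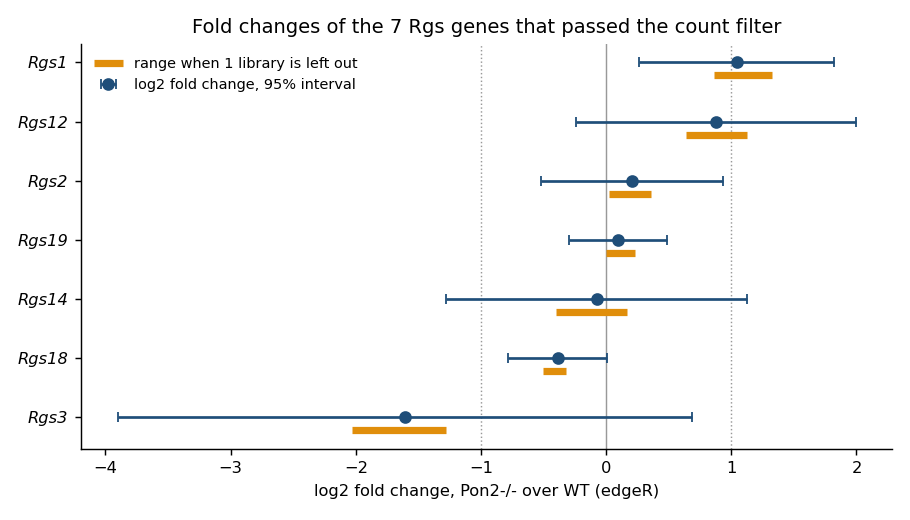
Log2 fold change, Pon2-/- over WT (horizontal axis), of the 7 *Rgs* genes that passed the filter on low counts, with 95% intervals from the edgeR fit (blue, n = 6 each) and the range of the log2 fold change when 1 library was left out (orange). The interval of *Rgs1* ran from 0.27 to 1.82 and that of the other 6 genes included 0, and dotted lines mark a change of 1 in either direction.

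The promoter windows of the 10 genes differed in CpG dinucleotides, the sites of DNA methylation in mammals. The window was the 250 bases before the transcription start in RefSeq (GRCm38.p6), which was matched for 7 of the 10 genes. RefSeq lists 2 windows for *Rgs3* and *Rgs12* and 3 for *Rgs19*, of which the first listed is given here. *Rgs2* had 30 CpG, *Rgs10* 27, *Rgs19* 20, *Rgs16* 17, *Rgs9* 14, *Rgs12* 14 and *Rgs3* 3, while the median of 32851 windows was 6. In the other windows, *Rgs3* had 7 CpG, *Rgs12* had 3, and *Rgs19* had 34 and 4, so the count depends on the start site. Of the first listed windows, those with the most and the fewest CpG are shown, *Rgs2* at chr1:144004150-144004399 on the minus strand and *Rgs3* at chr4:62559597-62559846 on the plus strand, with each CpG in capitals.
Rgs2: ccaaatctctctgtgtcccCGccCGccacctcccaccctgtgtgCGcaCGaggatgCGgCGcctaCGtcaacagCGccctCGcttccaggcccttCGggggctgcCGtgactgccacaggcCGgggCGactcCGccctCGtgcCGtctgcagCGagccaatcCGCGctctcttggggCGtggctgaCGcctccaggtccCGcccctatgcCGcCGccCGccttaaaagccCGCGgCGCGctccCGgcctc
Rgs3: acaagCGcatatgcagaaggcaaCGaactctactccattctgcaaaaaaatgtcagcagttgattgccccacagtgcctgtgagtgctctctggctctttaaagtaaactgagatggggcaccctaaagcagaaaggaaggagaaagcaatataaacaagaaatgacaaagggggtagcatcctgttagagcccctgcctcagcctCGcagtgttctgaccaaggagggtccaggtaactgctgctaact
At least 30 CpG were found in 5.94% of all windows and at least 3 in 71.0%. No methylation was measured in these cells.

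Of the 11 other *Rgs* genes, 10 had at most 89 counts over all libraries, and *Rgs11* had 2389. *Rgs6*, *Rgs17* and *Rgs20* had no count, *Rgs4*, *Rgs7* and *Rgs13* had 1 count each, and *Rgs22* had 25 counts in all. *Rgs5* had 28 counts in 1 WT library, *Rgs8* had 89 counts in 2 Pon2-/- libraries and *Rgs21* had 44 counts in 1 Pon2-/- library. *Rgs11*, an R7 gene, was the only one of them to pass the filter. It had 392, 908, 4, 311, 0 and 269 counts in WT replicates 1 to 6 and 326 and 179 counts in Pon2-/- replicates 5 and 6, with none in Pon2-/- replicates 1 to 4. *Rgs11* was counted in 5 WT and 2 Pon2-/- libraries, and its log2 fold change was -2.03 with a standard error of 2.00 (edgeR adjusted p = 0.9999).

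The genes around the *Rgs* genes in the G protein pathway were compared as 7 lists with 109 genes, of which 62 passed the filter and 0 passed both thresholds in either direction. Of the 62 genes, 31 had a log2 fold change above 0, and their median was 0.00, beside -0.01 for all genes tested. Proteins with an RGS-like box, such as G protein-coupled receptor kinases and axins, had 11 of 15 genes tested, 10 of them with a log2 fold change above 0 (median 0.23) and none with an unadjusted p below 0.05. Of the 16 genes for Gα subunits, the substrates of RGS proteins, 11 were tested, with a median of -0.18. Of the 16 genes for Gβ and Gγ subunits, 9 were tested, with a median of -0.06. The receptors had 15 of 30 genes tested (median -0.03), and the effectors of G proteins 13 of 18 (median -0.06). An unadjusted p below 0.05 was found for 4 of the 62 genes, all of them higher in Pon2-/- HSCs. Of all genes tested, 3.13% had such a p in either direction and 1.7% in this direction. None of the 4 passed an FDR of 0.05. The lists were chosen with earlier results of these data known, and the study had already named *Cxcr4*, so this count is a description.

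These 4 genes were a Gβ subunit, a Gα subunit and 2 receptors. *Gnb4*, the Gβ4 subunit, averaged 63.5 ± 31.5 CPM in the WT libraries and 207.4 ± 80.0 CPM in the Pon2-/- libraries (log2 fold change 1.71, standard error 0.34, edgeR adjusted p = 0.0747), and its genotypes did not overlap. *Cxcr4*, the receptor that holds HSCs in the niche and signals through Gαi, averaged 8.33 ± 5.75 CPM in the WT libraries and 35.5 ± 12.2 CPM in the Pon2-/- libraries (log2 fold change 2.09, standard error 0.60, edgeR adjusted p = 0.747). *Gnaz*, a Gα subunit of the Gi class, had a log2 fold change of 3.31 with a standard error of 1.23, and *Gpr18*, a receptor of lymphoid cells, had 3.84 with a standard error of 1.49 (edgeR adjusted p = 0.9999 for both). *Gnb4* passed both thresholds when at least 10 reads were required in every sample of a genotype (1 gene of the 7 lists, beside 32 of all genes).

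Of the marker lists, the 9 genes of the HSC list were all tested, with sums of 1569 to 1962 CPM in WT and 1320 to 1896 CPM in Pon2-/- HSCs. The erythroid list summed to 9.16 to 61.8 CPM in WT and 16.4 to 47.0 CPM in Pon2-/- HSCs, and held the only marker gene with an unadjusted p below 0.05, the β-globin gene *Hbb-bt* (log2 fold change -7.04, standard error 1.65, edgeR adjusted p = 0.265).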

How the data were processed

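Counts per gene were taken as the authors deposited them, whole-number counts of 49585 genes for each of 6 WT and 6 Pon2-/- mice, without normalization. Per the labels and the methods, the authors assessed reads with FastQC 0.11.5, trimmed them with Trimmomatic 0.36, mapped them with STAR 2.5.3a to GRCm38.p5 and had STAR count reads on the genes of GENCODE release M12. The single count column was taken as unstranded, since Smart-seq2 libraries carry no strand. Gene names, positions and lengths came from GENCODE release M21, which named 49326 of the genes, and promoter windows from RefSeq.

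Groups came from the sample titles. Genes were filtered with filterByExpr and compared in R 4.3.3 with edgeR 4.0.16 (TMM, quasi-likelihood F-test, genotype as the only term, all 12 libraries), and p-values were adjusted over all genes tested. Libraries of a genotype varied with a biological coefficient of variation of 99.2%. Intervals are 95% intervals of the t distribution with the degrees of freedom of the fit. For single genes, mean log2 CPM (prior count 2) was compared by exact permutation, two-sided, over all assignments of 6 of 12 libraries. Alternatives were DESeq2's size factors, other filters, DESeq2 1.42.0, limma 3.58.1 with voom, robust estimation, a replicate block, each library left out, and for the permutation test a prior count of 0.5 and scaling by the total count. Same-numbered libraries were not treated as pairs, as no source ties a number to a litter or a day.

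The 10 genes and the gene lists were chosen with earlier results of these data known. Named beside the 10 genes were *Pon2*, the sort markers, the other *Rgs* genes, genes overlapping or lying between members, and per list up to 3 genes with the smallest unadjusted p below 0.05. Names of partners of *Rgs9* and the count ratio of *Rgs1* to *Rgs18* were chosen after values were seen. The procedure was tested on simulated counts of 11848 genes for Pon2-/- against WT, with 200 genes changed. For edgeR, recovery in this simulation was 57% at a 4-fold change and 98% at a 16-fold change. Its calls numbered 165, with 10 in error, while DESeq2 made 215 calls, with 43 in error. These rates hold for the simulated spread between libraries, which was set below the biological coefficient of variation of 99.2% found here. Recovery in these mice would thus be lower.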

Additional observations from a re-analysis of the deposited data

Results flagged for a closer look

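Single libraries that stood far from the other 5 of their genotype were looked for in 21 groups. The groups were *Pon2* and the 10 *Rgs* genes in each genotype, leaving out *Rgs9* in WT HSCs, which had no count. Chance alone marks about 1 in 20 where values are normally distributed. A gene counted in only 1 library of a genotype, as *Rgs16* was in both, is always marked. *Pon2* was 1.16 CPM (25 counts) in Pon2-/- replicate 5, while the other Pon2-/- libraries had 28.4 to 33.1 CPM. *Rgs16* was 1.79 CPM (34 counts) in WT replicate 2 and 0 in the other WT libraries. *Rgs16* was also 0.0431 CPM (1 count) in Pon2-/- replicate 2 and 0 in the other Pon2-/- libraries, which is within what a single read gives.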

How the results depend on the processing

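No *Rgs* gene passed both thresholds in edgeR or limma under any alternative, and 1 gene, *Rgs9*, did so in DESeq2, whether its Cook's cutoff was on (the default) or off. The DESeq2 fits without Pon2-/- replicate 1 or 2, which were chosen after seeing the data, called 0 *Rgs* genes. The genes of the 7 G protein lists past both thresholds numbered 0 in the main fit, 1 with the stricter filter (10 reads or more in all libraries of one genotype), 3 with DESeq2 and 11 without Cook's cutoff, and 0 to 1 when 1 library was left out (*Gnb4*, without WT replicate 1). In the added DESeq2 fits they numbered 4 and 3. Of all genes, 24 (0.203%) were called in the main fit, 32 with the stricter filter, 22 without WT replicate 1 and 8 without a filter. DESeq2 called 305 (1.79% of the genes with an adjusted p), 950 (4.2%) without Cook's cutoff, and 312 and 296 in the added fits. With the replicate block, 5 genes were called. With this replicate block, the log2 fold change of *Rgs1* was 1.15 and no *Rgs* gene was called. The correlation of deviations between libraries of the same number was 0.000932 to 0.0430, and libraries did not correlate best with their own number throughout. The number of *Rgs* genes with an exact permutation p below 0.05 was 1 in the main analysis and with the replicate block, and 1 to 2 when 1 library was left out. The sign of the log2 fold change turned for *Rgs14* when WT replicate 3 (0.11), or replicate 2 (0.17) or 4 (0.084) of Pon2-/-, was left out, and for *Rgs19* when WT replicate 6 was (-0.00043). The ranges over single libraries left out were -0.40 to 0.17 and -0.00043 to 0.23. That of the log2 CPM difference turned for *Rgs2* (-0.031) and *Rgs14* (0.034) without Pon2-/- replicate 2 and for *Rgs16* without WT replicate 2 (0.080), with ranges of -0.031 to 0.27, -0.91 to 0.034 and -0.75 to 0.080. In the order by level per length, 6 of the 10 genes kept their place with the longest annotated transcript and 5 with the median over libraries. Counts of 0 in most libraries limit what can be said of *Rgs9*, *Rgs10* and *Rgs16*.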
